A study of Homo sapiens with 96 samples.

Results

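The protein arginine methyltransferases (PRMTs) place methyl groups on arginines of histones, RNA-binding proteins and splicing factors. The splicing of their own transcripts was examined here in A549 cells, an established human lung adenocarcinoma line, after inhibition of the same enzymes. The genes are PRMT1, PRMT2, PRMT3, PRMT5, PRMT7 and CARM1, which encode methyltransferases, and WDR77, CLNS1A and RIOK1, which encode partners of PRMT5. Members were all splicing events assigned to these 9 gene symbols in any of the 8 deposited tables of poly(A)-RNA seq, whether the alternative segment was a skipped exon (SE), one of a pair of mutually exclusive exons (MXE), the stretch between competing 3′ splice sites (A3SS) or 5′ splice sites (A5SS), or a retained intron (RI). This gave 285 events in 165 alternative segments, out of 239131 events over 14359 genes. An event with several pairs of flanking exons is listed several times, so events of one segment share reads and are not independent of each other.

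The 30 libraries fall into 10 groups of 3. All groups are the same cell line, and by the labels they differ in treatment and time alone. Control cells received 0.01% DMSO, the solvent, for 4 or 7 days. GSK591 inhibits PRMT5 and was given at 1 µM for 2, 4 or 7 days. MS023, which acts on the Type I enzymes, was given at the same dose over the same times. Both were added together (co-treatment), at 1 µM apiece, for 2 or 4 days. The 2-day and 4-day inhibitor groups share the same 3 DMSO libraries of 4 days, so their comparisons are not independent. These groups hold no DMSO of 2 days. In every 2-day comparison with DMSO, treatment therefore cannot be told apart from 2 against 4 days in culture. The labels do not say whether libraries of a group come from separate cultures. The p-values therefore rest on spread between these libraries, estimated mostly over the events of a type rather than for each event alone. Libraries of a group are called a, b and c, a name that pairs nothing across groups.

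Type I PRMTs, here PRMT1, PRMT2, PRMT3 and CARM1, form asymmetric dimethylarginine, whereas PRMT5, the main Type II enzyme, forms symmetric dimethylarginine and PRMT7 stops at monomethylarginine. PRMT5 works in a complex with WDR77 (also called MEP50), and CLNS1A (pICln) brings it the Sm proteins of the spliceosome, while RIOK1 is an adaptor that competes with CLNS1A. Methylated Sm proteins are loaded onto small nuclear RNAs, which is one route by which these enzymes touch splicing.

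Inclusion is given as Ψ, the share of length-corrected reads that carry the alternative segment, from 0 to 1, and ΔΨ is the mean Ψ of the inhibitor libraries minus that of the DMSO libraries. Group values are means ± SD over n = 3 libraries. Adjusted p-values come from a quasi-binomial model with dispersions moderated in limma, adjusted over all events of that type in the comparison, and an event was called at an adjusted p under 0.05. Counts on events listed in all tables summed to between 44.8 × 10⁶ and 65.8 × 10⁶ per library. A read that falls in several events is counted in each, so these sums are not numbers of reads. Marker genes were counted by reads on their most-read event, summed over the DMSO libraries of 4 days. Of the epithelial markers, KRT7 had 166351, KRT8 187877 and KRT18 124061. However, EPCAM had 222, ESRP1 was at 0 and the keratin KRT19 had no listed event. Leukocyte and fibroblast markers had between 0 and 150. Because the RNA is from bulk cells, an intermediate Ψ does not tell a mixture of transcripts within each cell from a mixture of cells.

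The exons that the results turn on most are shown first, on hg19 and 5′ to 3′ along the transcript. Lower case marks the exon, and the capitals at its ends mark the intron bases that touch it, AG before and GT after. The first is the longer form of CARM1 exon 10, between a 3′ splice site upstream of that of exon 10 and the 5′ splice site of exon 10, and the next is CARM1 exon 15, which encodes the automethylated part of the enzyme. They are followed by CLNS1A exon 3, by PRMT1 exon 2, which encodes a nuclear export signal, by PRMT7 exon 4, and by an exon within intron 9 of WDR77 that is absent from the main annotated transcript.
CARM1 exon 10, longer form, chr19:11030507-11030644, plus strand: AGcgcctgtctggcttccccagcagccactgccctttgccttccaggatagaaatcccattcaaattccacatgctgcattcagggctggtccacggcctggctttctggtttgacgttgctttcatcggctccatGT
CARM1 exon 15, chr19:11032049-11032121, plus strand: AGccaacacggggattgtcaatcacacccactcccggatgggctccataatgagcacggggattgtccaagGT
CLNS1A exon 3, chr11:77336760-77336865, minus strand: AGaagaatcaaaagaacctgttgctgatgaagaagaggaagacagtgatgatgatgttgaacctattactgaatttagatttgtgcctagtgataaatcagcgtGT
PRMT1 exon 2, chr19:50183127-50183184, plus strand: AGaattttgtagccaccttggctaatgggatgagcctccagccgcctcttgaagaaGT
PRMT7 exon 4, chr16:68355327-68355367, plus strand: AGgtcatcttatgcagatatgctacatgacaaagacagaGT
WDR77 exon in intron 9, chr1:111984119-111984228, minus strand: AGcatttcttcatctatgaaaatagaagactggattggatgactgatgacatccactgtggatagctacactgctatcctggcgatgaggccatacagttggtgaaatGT
CARM1 exon 15, CLNS1A exon 3 and PRMT1 exon 2 have lengths of 69, 102 and 54 nucleotides, which are multiples of 3, so that skipping them keeps the reading frame. PRMT7 exon 4 has 37 nucleotides and the WDR77 exon 106, which are not. Read in the frame of the upstream exon, the longer form of CARM1 exon 10 meets a stop codon (TAG) at codon 17 and the WDR77 exon one (TGA) at codon 14.

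The first question was how many splicing events of these genes changed under each inhibitor, and whether their share stood apart from the rest of the transcriptome. Of the 285 events, 263 had at least 10 reads in every library of at least 1 comparison and 34, in 32 segments, were called in at least 1 comparison with DMSO. They comprise 8 events of PRMT7, 6 of PRMT2, 4 each of PRMT1, PRMT5 and CARM1, 3 each of PRMT3 and CLNS1A and 2 of WDR77, and none of RIOK1. GSK591 gave 5 called of 153 tested at 2 days (3.27%, against 4.36% of all events), 12 of 158 at 4 days (7.59%, against 7.75%) and 10 of 140 at 7 days (7.14%, against 5.33%). MS023 gave 5 of 146 at 2 days (3.42%, against 1.49% of all events), 5 of 136 at 4 days (3.68%, against 1.89%) and 3 of 139 at 7 days (2.16%, against 2.48%). Co-treatment gave 17 of 150 at 2 days (11.3%, against 9.05% of all events) and 20 of 146 at 4 days (13.7%, against 10.9%). The members' shares thus lay on both sides of the background, were not tested against it, and rest on few events. Median ΔΨ of the members lay between −0.0006 and 0.0007 in these comparisons, so the genes as a group had no common direction. What follows is therefore about single exons. Each called difference was also tested by limma on the log2 odds of inclusion, which called between 0.021% and 6.57% of all events per comparison. It made 23 of the 84 calls of the segments described, and the account of each segment says which.

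**Figure D1:**
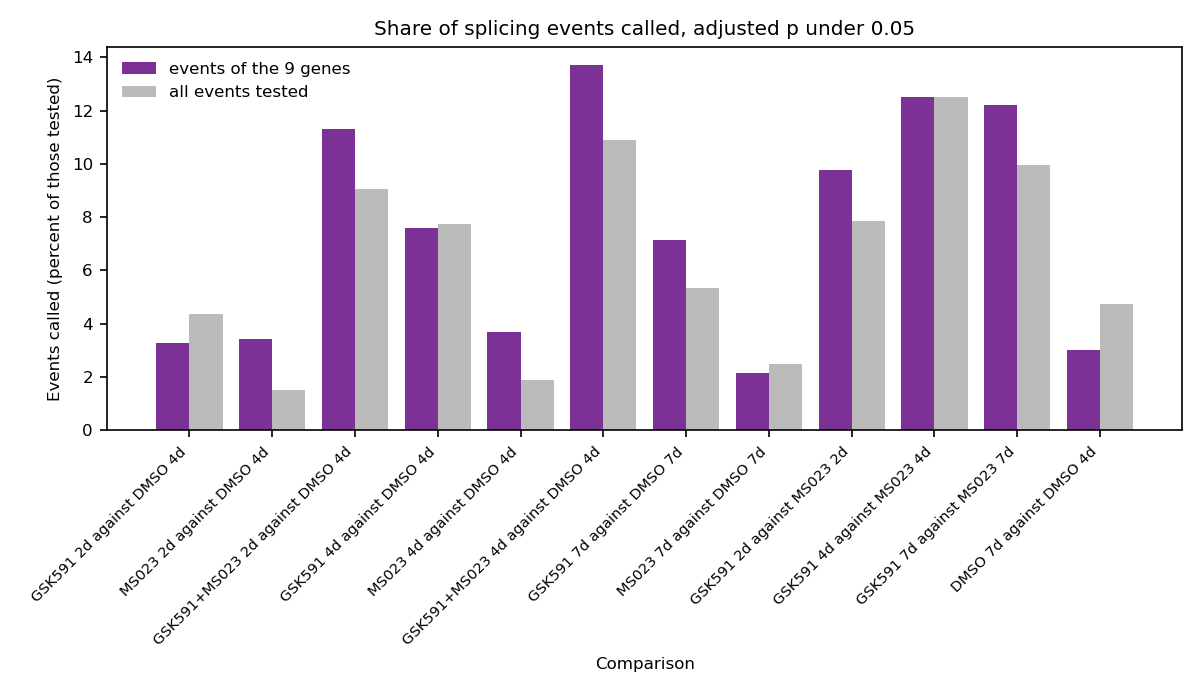
Percent of tested splicing events that were called (adjusted p under 0.05, quasi-binomial model) in each of the 12 comparisons, for the events of the 9 genes and for all events. Both rise with co-treatment, where 11.3% and 13.7% of the members' events were called against 9.05% and 10.9% of all events.

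CARM1 (PRMT4; chr19:10982229-11033751, plus strand, 16 exons) encodes the Type I enzyme that methylates histone H3 and transcriptional coactivators. A pair of its exons lost inclusion, exon 10 mainly after co-treatment and exon 15 in several groups. The Ψ of the longer form of exon 10 sets its inclusion against skipping reads alone. Splicing at the annotated 3′ splice site of exon 10 is not set against it. This Ψ is thus not the share of transcripts that carry the longer form. It was 1.0, 1.0 and 0.991 in the DMSO libraries of 4 days, with 0, 0 and 1 skipping reads. After co-treatment for 2 days it was 0.621, 0.803 and 0.562, with 45, 22 and 53 skipping reads. After co-treatment for 4 days it was 0.821, 0.815 and 0.672, with 25, 20 and 37 skipping reads. Every co-treated library lay below every DMSO library, and the ΔΨ was −0.335 at 2 days (0.662 ± 0.126 against 0.997 ± 0.0052, adjusted p = 1.56e-12) and −0.228 at 4 days (0.769 ± 0.0841, adjusted p = 3.71e-11). With GSK591 alone for 4 days Ψ was 0.976, 0.937 and 0.919 (ΔΨ −0.053, adjusted p = 0.0375). That call was lost without GSK591 library b (ΔΨ −0.0494) or c (−0.0406), or without DMSO library a or b (−0.0515 for either). In the MS023 libraries of 2 and 4 days Ψ lay between 0.960 and 0.992, and neither group was called. The annotated exon 10 of 90 nucleotides shares the junction to exon 11 and the skipping reads with the longer form, so it is no separate evidence. Its Ψ fell from 1.0, 1.0 and 0.997 to 0.815, 0.925 and 0.800 after co-treatment for 2 days (ΔΨ −0.153, adjusted p = 2.36e-12), and the ΔΨ after 4 days was −0.0988 (adjusted p = 1.93e-11). Its call with GSK591 for 4 days (ΔΨ −0.0199, adjusted p = 0.0413) was lost without GSK591 library b (−0.0185) or c (−0.015), or DMSO library a or b (−0.0194 for either). Limma on log2 odds made the co-treatment calls of both forms and neither GSK591 call.

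Exon 15 of CARM1 was the minor form in all groups, and the transcript without it encodes the enzyme that lacks the automethylation site. Its Ψ was 0.229, 0.270 and 0.285 in the DMSO libraries of 4 days (0.261 ± 0.0289). Co-treatment gave 0.106, 0.115 and 0.0934 at 2 days and 0.101, 0.120 and 0.107 at 4 days. All 6 co-treated libraries were below the DMSO range, with a ΔΨ of −0.156 (adjusted p = 3.62e-09; log2 odds −1.57, SE 0.222) and −0.152 (adjusted p = 4.49e-11). Each inhibitor alone also lowered exon 15 at 4 days. MS023 gave 0.164, 0.173 and 0.133 (ΔΨ −0.104, adjusted p = 8.94e-05), and GSK591 gave 0.136, 0.190 and 0.173 (ΔΨ −0.0945, adjusted p = 0.00209). Neither range overlapped that of DMSO, but the GSK591 call was lost without GSK591 library a (ΔΨ −0.0793). At 2 days no call was made for GSK591, with 0.242, 0.259 and 0.186, or for MS023, with 0.199, 0.180 and 0.188, although the latter lay below the DMSO range. At 7 days the DMSO values were 0.226, 0.297 and 0.257, those of GSK591 0.168, 0.169 and 0.183 and those of MS023 0.231, 0.207 and 0.179, and neither inhibitor was called. With 3 libraries a group, these uncalled differences are not shown to be absent. None of the 4 calls of exon 15 was made by limma on log2 odds.

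CLNS1A (pICln; chr11:77325575-77348839, minus strand, 7 exons) hands Sm proteins to PRMT5 and then holds them before assembly. Skipping of its exon 3 rose in every group that received GSK591, and in none that received MS023 alone was it called. The DMSO libraries of 4 days had Ψ of 0.999, 0.997 and 0.998, with 1, 3 and 2 skipping reads. Co-treatment for 2 days gave 0.931, 0.906 and 0.916, with 52, 80 and 67 skipping reads, and co-treatment for 4 days gave 0.932, 0.923 and 0.932, with 58, 53 and 44. All co-treated libraries lay below all DMSO libraries (ΔΨ −0.0803, adjusted p = 6.36e-16, log2 odds −5.34, SE 0.904, and ΔΨ −0.0689, adjusted p = 5.19e-19). GSK591 alone gave 0.958, 0.986 and 0.958 at 2 days (ΔΨ −0.0305, adjusted p = 3.87e-06), 0.978, 0.970 and 0.967 at 4 days (ΔΨ −0.0263, adjusted p = 3.13e-05) and 0.983, 0.972 and 0.956 at 7 days, against 0.997, 0.995 and 0.994 with DMSO for 7 days (ΔΨ −0.0247, adjusted p = 0.00171). None of these ranges overlapped that of its DMSO group. The 7-day call was lost without GSK591 library c (ΔΨ −0.0176). With MS023 the ΔΨ was −0.0029, −0.0103 and −0.0014 at 2, 4 and 7 days (adjusted p = 0.715, 0.112 and 0.837). Set directly against MS023, GSK591 had lower inclusion at 2 days (difference −0.0276, adjusted p = 4.89e-05) and at 7 days (−0.0233, adjusted p = 0.00214, lost without GSK591 library c at −0.0162), whereas the 4-day difference of −0.0159 was not called (adjusted p = 0.106). Exon 5 of CLNS1A, its most-read segment by the naming rule, went from 0.984, 0.989 and 0.982 to 0.958, 0.953 and 0.965 after co-treatment for 2 days (ΔΨ −0.0261, adjusted p = 0.00603). This call was lost without co-treatment library b (−0.0232) or DMSO library b (−0.0242). Of the calls in CLNS1A, limma on log2 odds made those of exon 3 with co-treatment at both days and with GSK591 for 4 days.

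**Figure D2:**
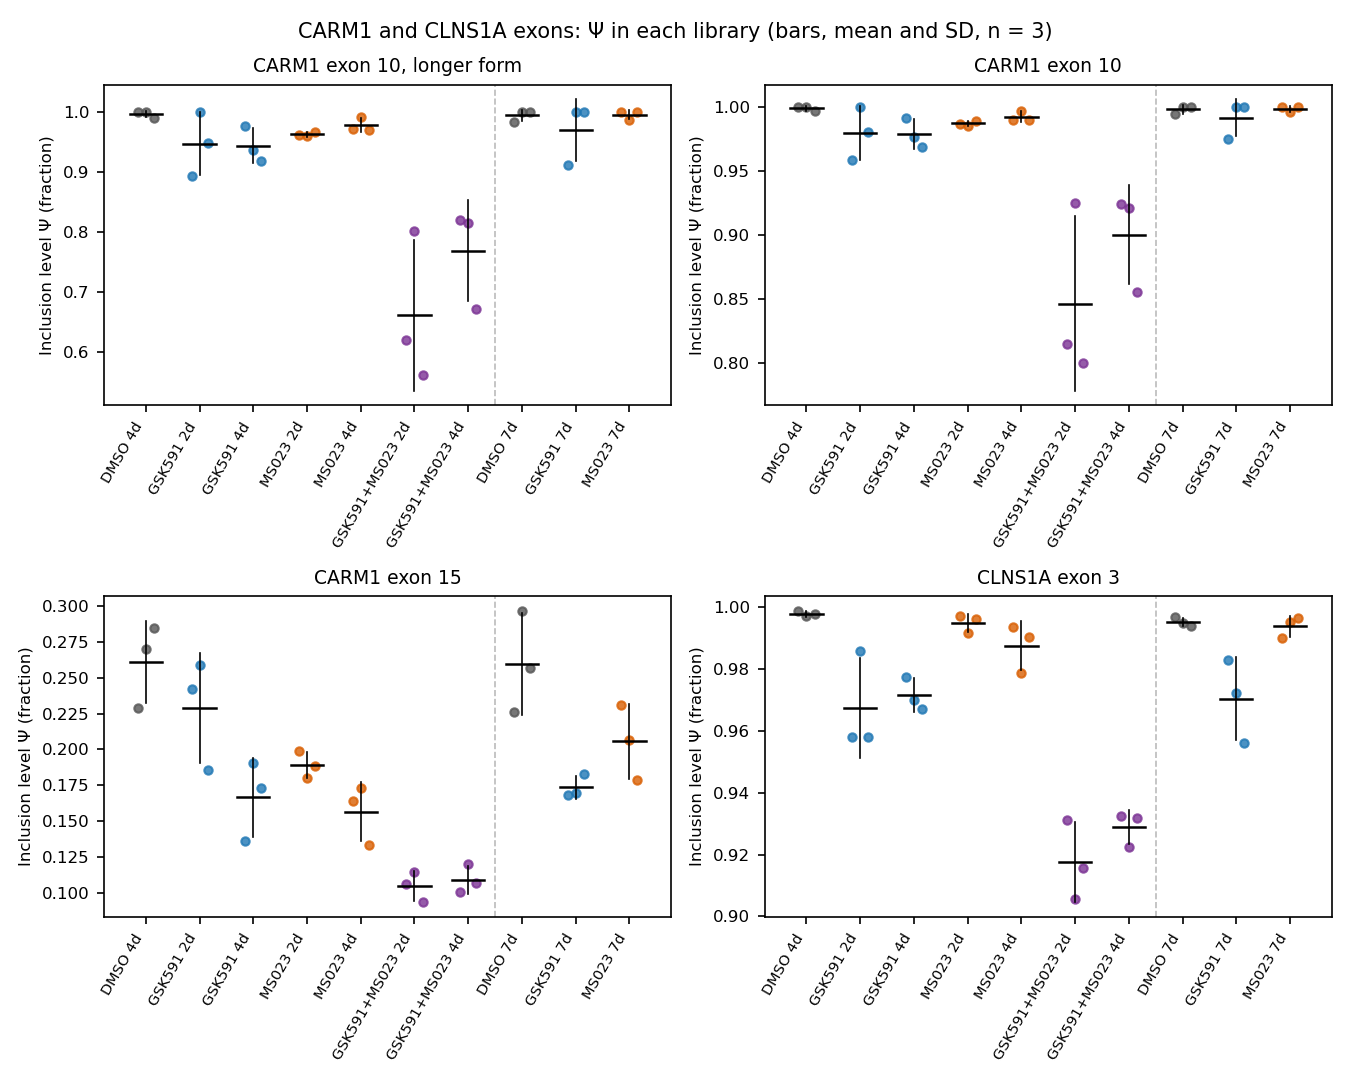
Inclusion level Ψ (vertical axis, 0 to 1, with a separate scale in each panel) of CARM1 and CLNS1A exons in every library, by treatment and day, with the mean of 3 libraries as a bar. The co-treated libraries of CARM1 exon 10 (longer form) and of CLNS1A exon 3 lie below all DMSO libraries, and CARM1 exon 15 falls from about 0.261 to 0.105 after co-treatment for 2 days.

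PRMT1 (chr19:50180528-50191704, plus strand, 11 exons) is the main source of asymmetric dimethylarginine in most cells, and its isoforms differ near the amino terminus. Its exons 2 and 3 are neighbours that moved under different inhibitors. Both were chosen for description after their values were seen, since their ΔΨ is under 0.1. The nuclear export exon, exon 2, had Ψ of 0.0954, 0.0846 and 0.108 in the DMSO libraries of 4 days (0.0959 ± 0.0116), at 991 to 3460 reads per library. With GSK591 it was 0.0555, 0.0586 and 0.0655 at 2 days (ΔΨ −0.0361, adjusted p = 0.000527) and 0.0569, 0.0774 and 0.0575 at 4 days (ΔΨ −0.032, adjusted p = 0.00503). Co-treatment gave 0.0422, 0.0559 and 0.0464 at 2 days (ΔΨ −0.0478, adjusted p = 2.36e-07) and 0.0414, 0.0432 and 0.0452 at 4 days (ΔΨ −0.0527, adjusted p = 5.6e-10, log2 odds −1.22, SE 0.19). Every one of these 12 libraries lay below the DMSO range. At 7 days GSK591 gave 0.0431, 0.0505 and 0.044 against 0.0798, 0.0731 and 0.0841 with DMSO (ΔΨ −0.0331, adjusted p = 4.15e-07), again without overlap. The 4-day GSK591 call was lost without GSK591 library a (−0.0285) or c (−0.0288), or without DMSO library c (−0.0261). MS023 gave a ΔΨ of 0.0001, −0.0093 and −0.0097 at 2, 4 and 7 days, none of them called (adjusted p = 0.996, 0.712 and 0.468). The direct difference, GSK591 minus MS023, was −0.0362 at 2 days (adjusted p = 0.000138), −0.0227 at 4 days (adjusted p = 0.0349, with overlapping libraries) and −0.0235 at 7 days (adjusted p = 5.57e-05). The 4-day difference was lost without GSK591 library a (−0.0192) or c (−0.0195), or MS023 library a (−0.014) or c (−0.0237). Exon 2 with another flanking exon formed 1 further tested event, which was not called in any of these comparisons. Its ΔΨ with GSK591 had the opposite sign, at 0.0346, 0.0285 and 0.0174 at 2, 4 and 7 days, and it was 0.0056 and −0.0423 with co-treatment at 2 and 4 days. None of the calls of exon 2 was made by limma on log2 odds.

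PRMT1 exon 3, of 102 nucleotides, was included in nearly all transcripts and fell with MS023. The DMSO libraries of 4 days had 0.981, 0.991 and 0.990, and MS023 gave 0.972, 0.970 and 0.965 at 2 days (ΔΨ −0.0187, adjusted p = 0.000149) and 0.974, 0.977 and 0.967 at 4 days (ΔΨ −0.0152, adjusted p = 0.0042). At 7 days the values were 0.962, 0.958 and 0.967 with MS023 and 0.980, 0.986 and 0.976 with DMSO (ΔΨ −0.0179, adjusted p = 0.000187). In all 3 comparisons the MS023 libraries lay below the DMSO libraries. The 4-day call was lost without MS023 library c (−0.0124) or DMSO library b (−0.0134) or c (−0.0137). With GSK591 the ΔΨ was 0.0043, 0.0079 and 0.007, and with co-treatment −0.0078 and 0.0006, none of them called. GSK591 exceeded MS023 by 0.023 at 2 days (adjusted p = 7.31e-07), 0.0231 at 4 days (adjusted p = 4.38e-08) and 0.0249 at 7 days (adjusted p = 6.08e-09). Of the calls of exon 3, limma on log2 odds made only this difference at 4 days. A further 5′ splice site lies within intron 2 and adds 15 nucleotides. The Ψ of the longer end went from 0.509, 0.524 and 0.569 with DMSO to 0.868, 0.732 and 0.758 after co-treatment for 2 days (ΔΨ 0.252, adjusted p = 0.0061), at 32 to 100 reads per library, and the call was lost without co-treatment library a (0.211). At 4 days of co-treatment it was 0.735, 0.683 and 0.690, which was not called. The call at 2 days was not made by limma on log2 odds.

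WDR77 (chr1:111982512-111991878, minus strand, 10 exons) encodes the WD-repeat partner that PRMT5 needs for its activity. The exon within intron 9, chosen after its values were seen, was a rare form that became rarer with GSK591 and with co-treatment. Its Ψ was 0.0399, 0.029 and 0.046 in the DMSO libraries of 4 days, from 42, 36 and 46 inclusion reads. GSK591 gave 0.0106, 0.0102 and 0.0072 at 2 days (ΔΨ −0.029, adjusted p = 0.00043) and 0.008, 0.0017 and 0.0109 at 4 days (ΔΨ −0.0315, adjusted p = 0.000355). Co-treatment for 2 days gave 0.0062, 0 and 0.0086 (ΔΨ −0.0334, adjusted p = 2.29e-05) and for 4 days 0, 0.0025 and 0 (ΔΨ −0.0375, adjusted p = 1.09e-06). Every library with GSK591 lay below the DMSO range, and these 4 calls held without any 1 library. After 4 days of co-treatment the exon had 0, 1 and 0 inclusion reads, and a count of 0, which allows up to 3 reads, allows a Ψ of up to 0.006 in library a and 0.0074 in library c. MS023 gave 0.0212, 0.0152 and 0.0122 at 2 days, below the DMSO range but not called (ΔΨ −0.0221, adjusted p = 0.0552), and 0.0218, 0.015 and 0.0251 at 4 days (adjusted p = 0.265). At 7 days the DMSO libraries spread over 0.0401, 0.0237 and 0.0073, and GSK591 (0.0055, 0.0031 and 0.0059) was not called (ΔΨ −0.0189, adjusted p = 0.126). GSK591 and MS023 did not differ by a call at 2 days (−0.0069, adjusted p = 0.518) or 4 days (−0.0138, adjusted p = 0.085). The 7-day difference of −0.0224 (adjusted p = 0.0208) was lost without GSK591 library a (−0.0227), b (−0.0216) or c (−0.0229), or MS023 library a (−0.0175) or c (−0.0208). Of all these calls limma on log2 odds made only that of co-treatment for 4 days.

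Exon 4 of WDR77, of 50 nucleotides, was skipped more often after co-treatment. It had Ψ of 0.994, 0.963 and 1.0 with DMSO and 0.862, 0.886 and 0.881 after co-treatment for 4 days (ΔΨ −0.109, adjusted p = 0.00414), a call that held without any 1 library and by limma on log2 odds. After 2 days of co-treatment it was 0.897, 0.933 and 0.942, also below the DMSO range, but this was not called.

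**Figure D3:**
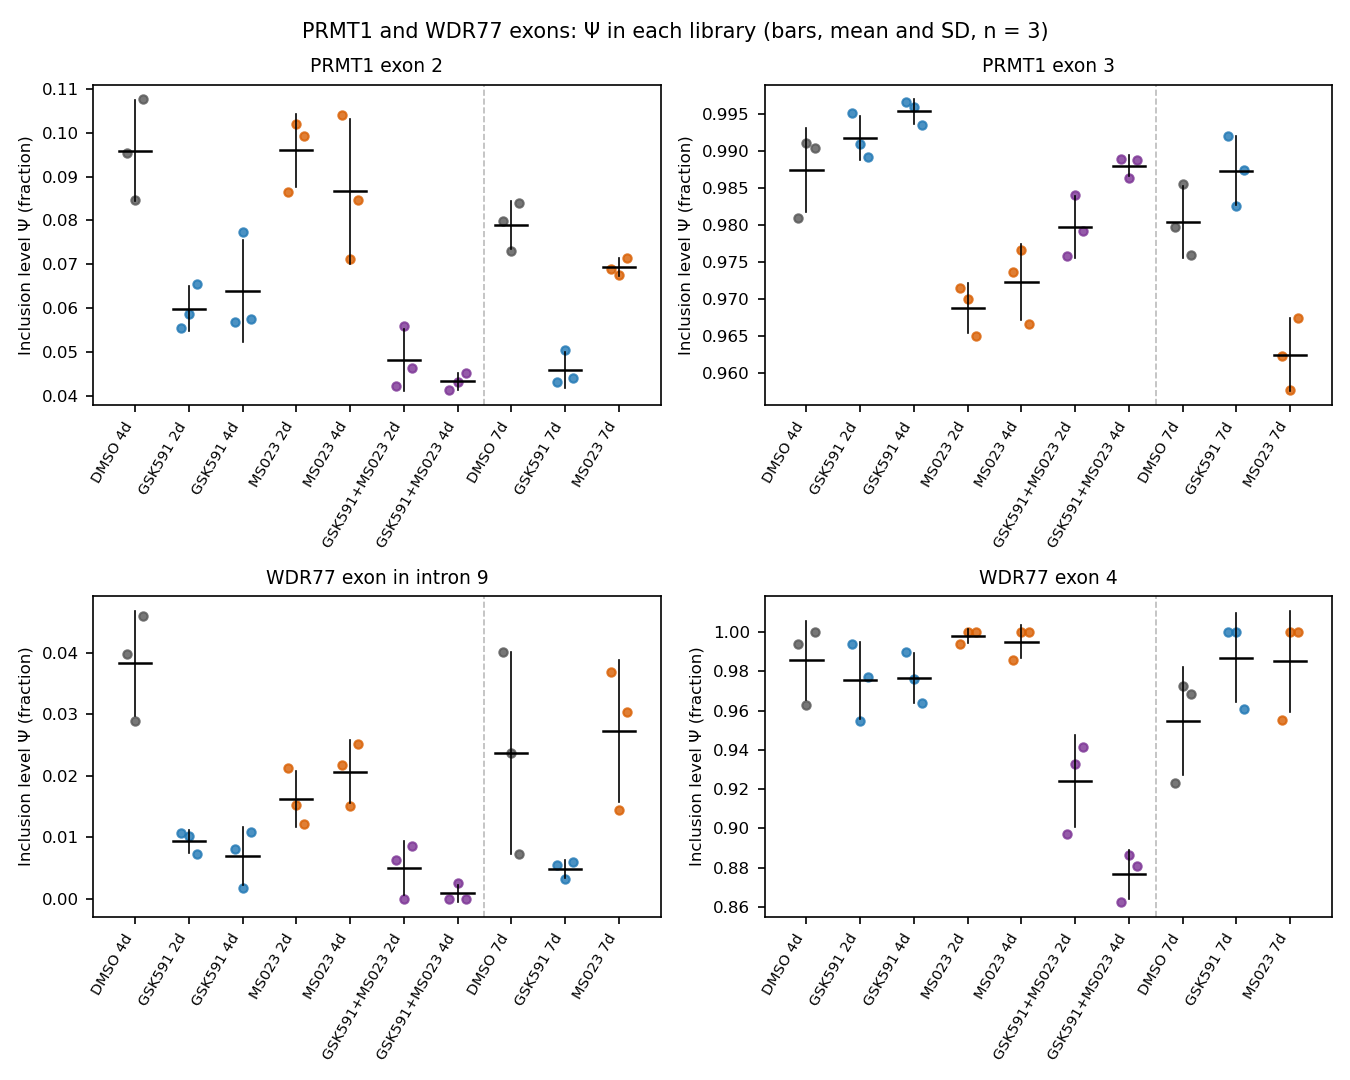
Inclusion level Ψ (vertical axis, separate scale in each panel) of PRMT1 exons 2 and 3 and of WDR77 segments in every library, by treatment and day, with the mean of 3 libraries as a bar. PRMT1 exon 2 sits near 0.0959 with DMSO for 4 days and near 0.0432 after co-treatment, exon 3 is lowest with MS023, and the WDR77 exon in intron 9 is at or near 0 after co-treatment.

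PRMT5 itself (chr14:23389738-23398585, minus strand, 17 exons) changed at the start of its transcript, where part of the RNA keeps intron 2. A pair of events covers this intron and shares its reads. In the A5SS event the longer end of exon 2 runs through intron 2 and exon 3, which adds 371 nucleotides, and the shorter end joins exon 2 to exon 4. The junction from exon 2 to exon 3 is in neither form. This Ψ is thus not the share of RNA that keeps intron 2, and it depends on the skipping of exon 3 as well. Its Ψ was 0.317, 0.275 and 0.364 with DMSO for 7 days and 0.601, 0.574 and 0.527 with GSK591 (ΔΨ 0.249, adjusted p = 0.00943), at 57 to 121 reads per library. The ranges did not overlap, and the call was lost without GSK591 library a (0.232) or DMSO library b (0.227). MS023 gave 0.223, 0.254 and 0.228 at 7 days, below GSK591 by 0.333 (adjusted p = 1.27e-05). At 2 days GSK591 gave 0.547, 0.584 and 0.478 and MS023 0.318, 0.175 and 0.259, a difference of 0.286 (adjusted p = 0.00128). At 2 and 7 days every GSK591 library exceeded every MS023 library. The 4-day difference between them, 0.159 (0.535 against 0.376), was not called (adjusted p = 0.109), and at 2 and 4 days neither inhibitor was called against DMSO (0.430, 0.361 and 0.334). Limma on log2 odds made only the call between the inhibitors at 7 days.

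The RI event of PRMT5 intron 2, of 285 nucleotides, was chosen after its values were seen and gives the same contrast at a lower level. Read on from exon 2, the intron meets a stop codon (TGA) at codon 29. Its Ψ was 0.024, 0.023 and 0.0302 with DMSO for 7 days and 0.0431, 0.0353 and 0.0519 with GSK591 (ΔΨ 0.0177, adjusted p = 0.00528), a call that was lost without GSK591 library c (0.0135). Co-treatment for 4 days gave 0.0601, 0.073 and 0.0402 against 0.0372, 0.0411 and 0.0339 with DMSO (ΔΨ 0.0203, adjusted p = 0.0215). Here the ranges overlapped, and the call was lost without co-treatment library a (0.0192) or b (0.0127) or DMSO library c (0.0186). With MS023 the ΔΨ was −0.0064, −0.0024 and −0.0005, none of them called. GSK591 exceeded MS023 by 0.0168 at 4 days (adjusted p = 0.0219) and by 0.0182 at 7 days (adjusted p = 0.00147), the former lost without GSK591 library b (0.014) or MS023 library a (0.0154) or c (0.0161). The last exon of PRMT5 holds competing 5′ splice sites that lie 148 nucleotides apart. Introns that start at either site are listed as RI events and end at the same 3′ splice site. The longer form is thus itself spliced, and its body reads can also come from unspliced RNA. This longer form had Ψ of 0.930, 1.0 and 0.970 with DMSO for 7 days, 0.868, 0.916 and 0.928 with GSK591 (ΔΨ −0.0626, adjusted p = 0.0163) and 0.889, 0.899 and 0.857 with MS023 (ΔΨ −0.0848, adjusted p = 0.00143). The first of these calls was lost without GSK591 library a (−0.0447) or DMSO library b (−0.0459), and the second without MS023 library c (−0.0726) or DMSO library b (−0.0681). None of the calls of intron 2 or of the last exon was made by limma on log2 odds.

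PRMT7 (chr16:68344922-68392487, plus strand, 19 exons) showed changes in both directions after co-treatment. Exon 4 had Ψ of 0.936, 0.935 and 0.889 with DMSO for 4 days (0.920 ± 0.027), at 150 to 324 reads per library. Co-treatment gave 0.718, 0.752 and 0.779 at 2 days (ΔΨ −0.171, adjusted p = 1.16e-05) and 0.722, 0.719 and 0.680 at 4 days (ΔΨ −0.214, adjusted p = 4.14e-09, log2 odds −2.31, SE 0.377). All 6 co-treated libraries lay below all DMSO libraries, and both calls held without any 1 library. GSK591 alone gave 0.870, 0.819 and 0.835 at 2 days (ΔΨ −0.0788, adjusted p = 0.0602) and 0.854, 0.857 and 0.853 at 4 days (ΔΨ −0.0656, adjusted p = 0.114), below the DMSO range but not called. MS023 libraries of 2 and 4 days lay between 0.891 and 0.943. An MXE event that sets exon 5 against a later exon counts the junction from exon 3 to exon 5, which is the skipping of exon 4, so it repeats this change in part. Its Ψ rose from 0.0947, 0.103 and 0.155 to 0.329, 0.326 and 0.252 after co-treatment for 2 days (ΔΨ 0.184, adjusted p = 0.00228) and to 0.303, 0.318 and 0.316 after 4 days (ΔΨ 0.194, adjusted p = 0.000711). Limma on log2 odds made both calls of the MXE event and neither of exon 4.

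Exons 12 and 13 of PRMT7 went the other way. Exon 12, of 84 nucleotides, had Ψ of 0.876, 0.867 and 0.922 with DMSO, 0.969, 0.978 and 0.983 after co-treatment for 2 days (ΔΨ 0.0881, adjusted p = 0.0214) and 1.0 in all 3 libraries after 4 days (ΔΨ 0.112, adjusted p = 1.62e-05). The ranges did not overlap. The 2-day call was lost without co-treatment library b (0.0876) or c (0.0851) or DMSO library a (0.0822) or b (0.0775). Exon 13 of 48 nucleotides, in the event between exons 11 and 14, was chosen after its values were seen and is not the most-read event of that exon. Its skipping reads leave out exon 12 as well, and it had 20 to 90 reads per library. It was at 0.791, 0.628 and 0.579 with DMSO (mean 0.666), 0.886, 0.916 and 0.953 with MS023 for 2 days (ΔΨ 0.253, adjusted p = 0.00368) and 0.933, 0.920 and 1.0 with MS023 for 4 days (ΔΨ 0.285, adjusted p = 0.000223). Co-treatment gave 0.974, 0.973 and 1.0 at 2 days (ΔΨ 0.317, adjusted p = 0.000248) and 1.0, 0.855 and 0.925 at 4 days (ΔΨ 0.261, adjusted p = 0.00224). All of these libraries exceeded all DMSO libraries. The 2-day MS023 call was lost without MS023 library c (0.235) or DMSO library c (0.209), and the 4-day co-treatment call without co-treatment library a (0.224). With GSK591 the ΔΨ was 0.0591 at 2 days (adjusted p = 0.699) and 0.201 at 4 days (adjusted p = 0.0757), and at 7 days 0.163 with GSK591 (adjusted p = 0.377) and 0.184 with MS023 (adjusted p = 0.316). The other tested events of exon 13, with other flanking exons, were not called against DMSO, and their ΔΨ went down to −0.0569. GSK591 lay below MS023 in the exon 13 event given by library at 2 days (difference −0.194, adjusted p = 0.0354). That call was lost without GSK591 library b (−0.178) or c (−0.176) or MS023 library a (−0.210), b (−0.195) or c (−0.176). A further exon 13 event was also lower with GSK591, by −0.252 at 2 days (adjusted p = 0.0008) and −0.208 at 4 days (adjusted p = 0.0031). In the exon 12 event given by library, MS023 had a ΔΨ of −0.0013 at 2 days and 0.023 at 4 days, not called. GSK591 exceeded MS023 there by 0.079 at 7 days (adjusted p = 0.00615), a call lost without GSK591 library b (0.0769) or MS023 library c (0.0525).

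PRMT7 exon 12 was listed with 2 later downstream exons as well, and these events did not all move like the first. The event between exons 11 and 14 counts the same skipping reads as the exon 13 event, and had a ΔΨ of 0.243 with MS023 for 2 days (adjusted p = 0.00604), 0.265 with MS023 for 4 days (adjusted p = 0.00131), and 0.316 and 0.283 with co-treatment for 2 and 4 days (adjusted p = 6.27e-05 and 3.03e-05). Its 2-day MS023 call was lost without MS023 library b (0.232) or c (0.225) or DMSO library b (0.195), and the 4-day one without MS023 library c (0.231). The event that ends in exon 15 had a ΔΨ of 0.255 with MS023 for 2 days (adjusted p = 0.0102, lost without MS023 library b at 0.206 or DMSO library b at 0.200) and 0.241 with GSK591 for 7 days (adjusted p = 0.0356). The GSK591 call was lost without GSK591 library a (0.224) or b (0.186) or DMSO library a (0.248), b (0.221) or c (0.255). In this event GSK591 lay below MS023 at 2 days (0.435 against 0.765, difference −0.330, adjusted p = 2.81e-05) and at 4 days (0.478 against 0.719, difference −0.240, adjusted p = 0.00334, lost without MS023 library c at −0.173). The result by limma on log2 odds is not given for the further exon 13 event. Of the other calls of exons 12 and 13 given here, limma made those of the first exon 12 event with co-treatment for 4 days and between the inhibitors at 7 days. It also made, with co-treatment for 2 days, that of exon 13 and that of the exon 12 event between exons 11 and 14, and no other.

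PRMT2 (chr21:48055586-48085036, plus strand, 12 exons) is a Type I enzyme of low activity and a coactivator of nuclear receptors. Its noncoding exon 2, of 109 nucleotides, moved in opposite directions with GSK591 and MS023 at 4 days, but not at 7 days. With DMSO for 4 days Ψ was 0.239, 0.310 and 0.260 (0.270 ± 0.0361). GSK591 gave 0.220, 0.167 and 0.166 at 2 days (ΔΨ −0.0855, adjusted p = 0.0334) and 0.171, 0.195 and 0.178 at 4 days (ΔΨ −0.088, adjusted p = 0.00798). MS023 gave 0.322, 0.379 and 0.418 at 4 days (ΔΨ 0.103, adjusted p = 0.00894), and co-treatment 0.432, 0.511 and 0.412 (ΔΨ 0.182, adjusted p = 7.81e-08). All of these groups stood clear of the DMSO range, whereas co-treatment for 2 days, at 0.312, 0.201 and 0.238, did not. GSK591 was below MS023 by 0.119 at 2 days (difference −0.119, adjusted p = 0.000862) and by 0.191 at 4 days (−0.191, adjusted p = 8.17e-11). At 7 days GSK591 gave 0.326, 0.362 and 0.299 against 0.224, 0.224 and 0.286 with DMSO, a change in the other direction (ΔΨ 0.0842, adjusted p = 0.0179). MS023 was not called against DMSO at 2 days (mean 0.3025, libraries 0.2687 to 0.3378) or at 7 days (mean 0.3017, libraries 0.2392 to 0.3428). Both ranges overlapped those of DMSO, and at 7 days both inhibitor means exceeded the DMSO mean of 0.2446. Of the calls against DMSO, only that of co-treatment at 4 days held without any 1 library. The 2-day GSK591 call was lost without GSK591 library b (−0.0768) or c (−0.0762) or DMSO library b (−0.0655) or c (−0.0904), and the 4-day one without GSK591 library c (−0.0864) or DMSO library b (−0.068). That of MS023 was lost without MS023 library b (0.101) or c (0.081) or DMSO library a (0.0883) or c (0.0985), and the 7-day one without GSK591 library a (0.0858) or b (0.0675) or DMSO library a or b (0.074 for either). No call of exon 2 was made by limma on log2 odds.

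Near the 3′ end of PRMT2, exon 11, of 172 nucleotides, was included more with GSK591. It had Ψ of 0.743, 0.856 and 0.904 with DMSO for 4 days and 1.0, 0.948 and 0.978 with GSK591 (ΔΨ 0.141, adjusted p = 0.0079), and 0.990, 0.990 and 0.971 after co-treatment (ΔΨ 0.15, adjusted p = 0.000221). At 7 days GSK591 gave 0.967, 0.988 and 0.988 against 0.881, 0.876 and 0.842 with DMSO (ΔΨ 0.114, adjusted p = 0.0155). No treated library fell within the DMSO range in these 3 comparisons. GSK591 exceeded MS023 at 4 days by 0.131 (adjusted p = 0.00839) and at 7 days, where MS023 gave 0.807, 0.801 and 0.775, by 0.187 (adjusted p = 2.45e-05). The GSK591 call was lost at 4 days without GSK591 library a (0.129) or DMSO library a (0.0957) and at 7 days without GSK591 library b (0.111) or c (0.111) or DMSO library c (0.102). The 4-day difference from MS023 was lost without GSK591 library a (0.118) or MS023 library a (0.115). Exon 8, of 176 nucleotides, shares the exon 7 to exon 12 skipping reads with exon 11 and rose by 0.0947 with GSK591 (adjusted p = 0.0155) and by 0.0958 with co-treatment (adjusted p = 0.00611) at 4 days, both calls being lost without DMSO library a (0.0658 and 0.0669). The first was lost also without GSK591 library a (0.0857) or c (0.0938), and the second without co-treatment library a or b (0.092 for either). GSK591 exceeded MS023 in exon 8 by 0.119 at 7 days (adjusted p = 2.6e-05). The MXE event of exon 8 against exon 11 fell from 0.628, 0.593 and 0.610 to 0.517, 0.521 and 0.473 after 4 days of co-treatment (ΔΨ −0.107, adjusted p = 0.0137), and was lost without co-treatment library c (−0.0912) or DMSO library a (−0.0979). Intron 9, of 837 nucleotides, chosen after its values were seen, was retained less with GSK591 at 7 days, at 0.0791, 0.0891 and 0.093 against 0.201, 0.212 and 0.134 with DMSO (ΔΨ −0.0951, adjusted p = 0.000969). MS023 gave 0.145, 0.130 and 0.126 (ΔΨ −0.0484, adjusted p = 0.301). Limma on log2 odds made the call of intron 9 and, for exon 11, those of co-treatment and of GSK591 against MS023 at 7 days, for exon 8 that of GSK591 against MS023 at 7 days, and no other call of this paragraph.

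**Figure D4:**
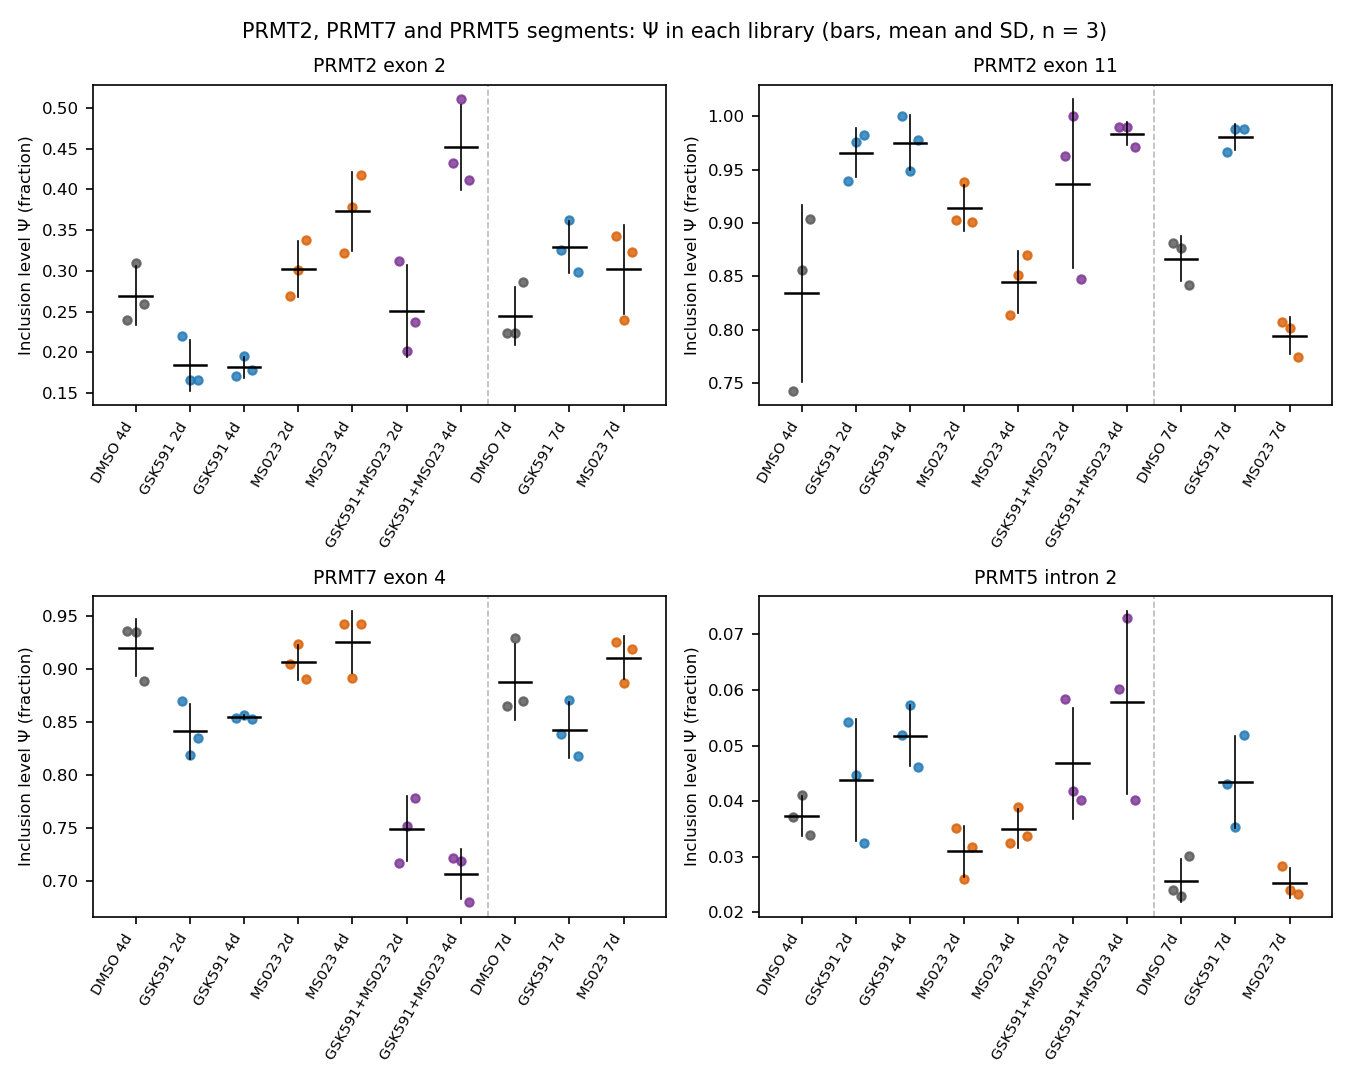
Inclusion level Ψ (vertical axis, separate scale in each panel) of segments of PRMT2, PRMT7 and PRMT5 in every library, by treatment and day, with the mean of 3 libraries as a bar. PRMT2 exon 2 lies at 0.166 to 0.220 with GSK591 for 2 or 4 days and at 0.412 to 0.511 after co-treatment for 4 days, and PRMT7 exon 4 lies between 0.680 and 0.779 in all co-treated libraries.

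PRMT3 (chr11:20409262-20530884, plus strand, 16 exons), the Type I enzyme that methylates a ribosomal protein, and RIOK1 (chr6:7390041-7418270, plus strand, 17 exons), the PRMT5 adaptor, had their calls on few skipping reads and none at all, respectively. Exon 4 of PRMT3, of 50 nucleotides and chosen after its values were seen, had Ψ of 0.965, 0.936 and 0.939 with DMSO for 4 days. It was 0.989, 0.991 and 1.0 with GSK591 for 2 days (ΔΨ 0.0466, adjusted p = 0.0386), 1.0, 0.992 and 1.0 after co-treatment for 2 days (ΔΨ 0.0506, adjusted p = 0.0164) and 1.0, 0.991 and 1.0 after 4 days (ΔΨ 0.05, adjusted p = 0.0137). All of these libraries exceeded the DMSO libraries. The GSK591 call was lost without GSK591 library a (0.0487), b (0.0477) or c (0.0433) or DMSO library b (0.0412) or c (0.0428). The co-treatment calls were lost at 2 days without co-treatment library a or c (0.0493 for either) or DMSO library b (0.0452), and at 4 days without co-treatment library a or c (0.0484 for either). GSK591 exceeded MS023 by 0.0324 at 7 days (adjusted p = 0.0292), a call lost without GSK591 library a, b or c (0.0324 for each) or MS023 library a (0.0268) or c (0.0311). Limma on log2 odds made both co-treatment calls and this one, and not that of GSK591 against DMSO. Other events of PRMT3 went down after co-treatment, and are given by group mean because their values were seen first. Exon 10, of 100 nucleotides, had a ΔΨ of −0.0348 at 2 days (0.964 against 0.999, adjusted p = 0.0439) and −0.0287 at 4 days (0.970, adjusted p = 0.0241). The 2-day call was lost without co-treatment library b (−0.0428) or c (−0.0148) or DMSO library a or c (−0.0341 for either), and the 4-day one without co-treatment library a (−0.0152) or DMSO library a or c (−0.0281 for either) or by limma on log2 odds. An MXE event of exon 3 against exon 4 fell from 0.240 to 0.0456 after co-treatment for 2 days (ΔΨ −0.194, adjusted p = 0.0469). It was lost without DMSO library a (−0.221) or c (−0.164) or without co-treatment library a (−0.191), b (−0.207) or c (−0.184). Reads of exon 4 count against exon 3 in this MXE event, so its fall repeats the rise of exon 4 in part. The most-read segment of PRMT3, exon 7 of 145 nucleotides, was not called in any comparison, with Ψ between 0.962 and 1.0 in all libraries. Of the 21 events of RIOK1, 18 were tested in at least 1 comparison and none was called in the quasi-binomial model or by limma on log2 odds. Between 5 and 15 were tested in each comparison with DMSO, and 1, with GSK591 for 4 days, had an unadjusted p under 0.05 in the quasi-binomial model (0 to 3 per comparison by limma). The ΔΨ values against DMSO lay between −0.0345 and 0.0616. Exon 3 of RIOK1, of 91 nucleotides and its most-read segment, had Ψ between 0.948 and 1.0 at 95 to 221 reads per library.

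**Figure D5:**
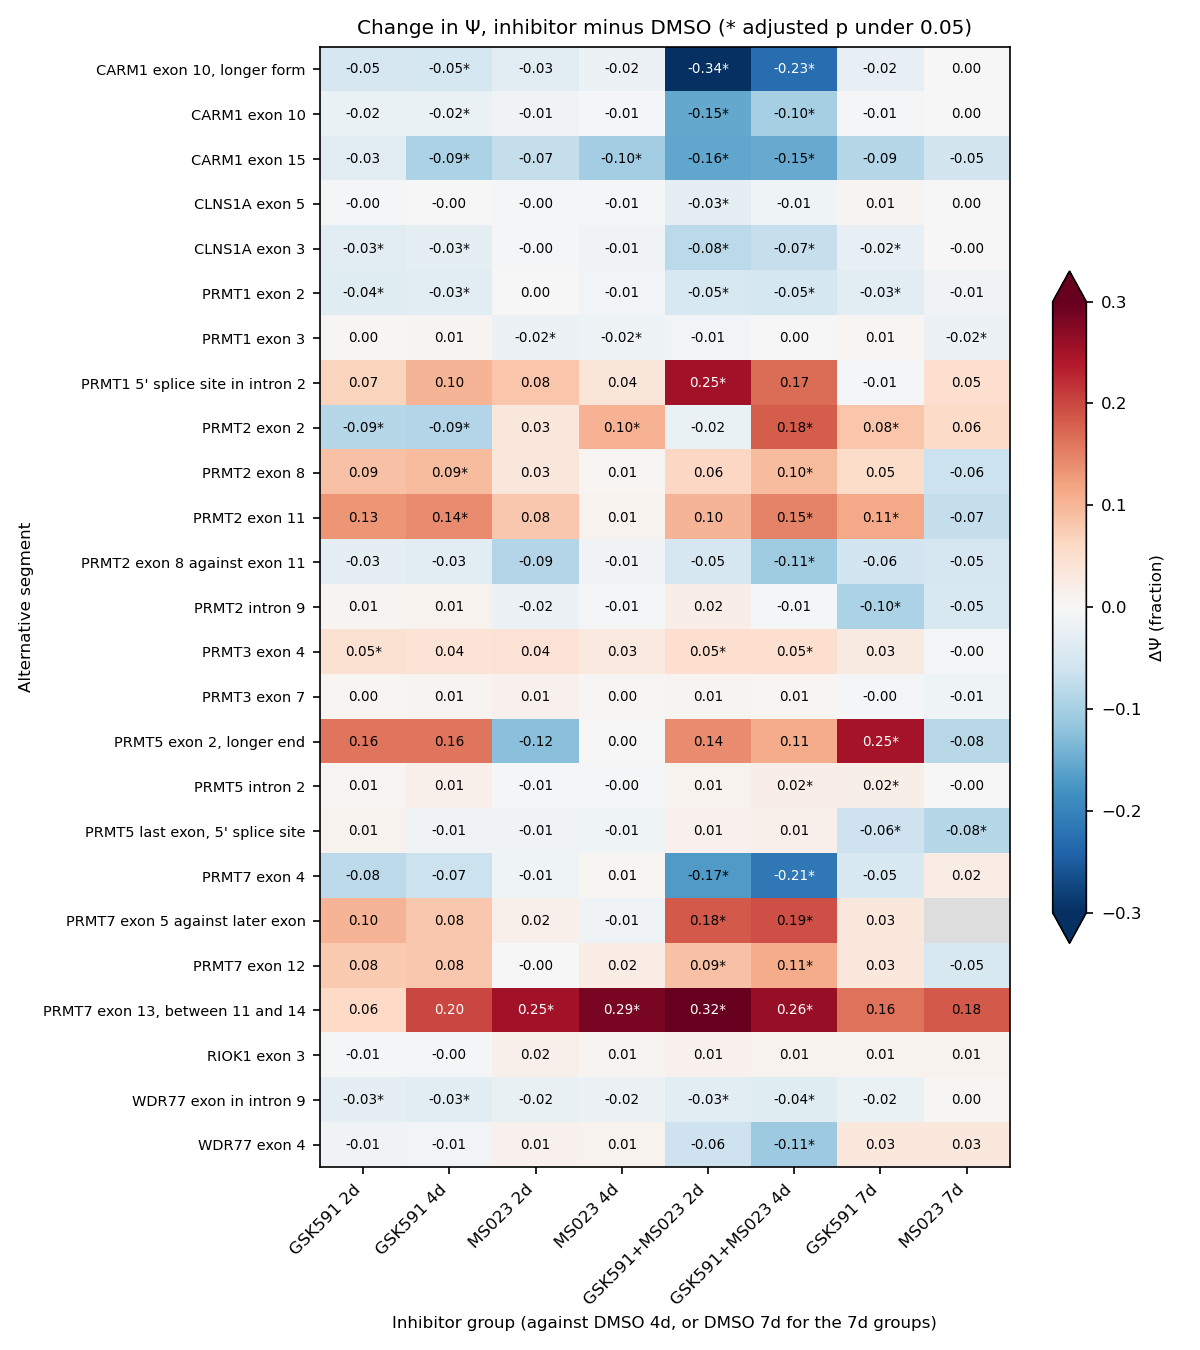
Difference in inclusion level ΔΨ (colour, inhibitor minus DMSO) of the named segments (rows) in each of the 8 comparisons of an inhibitor group with DMSO (columns), with called differences marked. The most negative cell is CARM1 exon 10, longer form, after co-treatment for 2 days (−0.335), and PRMT7 exon 13 is at 0.253 to 0.317 in the co-treated groups and with MS023 for 2 and 4 days.

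RI events, the class that is called most often in this data set, were few among the 9 genes. At 7 days with GSK591, 3 of the 8 tested RI events were called, against 24.9% of all RI, and with MS023 1 of 8, against 9.72% of all RI. After co-treatment for 4 days 1 of 7 was called, against 38.3% of all RI. In the other 5 comparisons with DMSO the quasi-binomial model called 0. These were GSK591 for 2 days (of 7 tested, 0 at an unadjusted p under 0.05, against 24.6% of all RI called) and for 4 days (of 8, 2 unadjusted, against 36.3%), co-treatment for 2 days (of 7, 1 unadjusted, against 33% of all RI), and MS023 for 2 days (of 7, 0 unadjusted, against 4.48%) and 4 days (of 7, 0 unadjusted, against 6.08%). By limma on log2 odds 1 of the 8 was called with GSK591 for 4 days and 0 in the other 4. The introns called are those of PRMT2 and PRMT5 given above and the RI form of the last exon of PRMT5. The last-exon RI form includes the bases of its 5′ splice site event. Of the 34 events called against DMSO, 7 are not described singly, with 8 calls, 3 higher and 5 lower, and ΔΨ between −0.205 and 0.201.

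Set directly against each other at the same day, the inhibitors differed at 12 of 123 tested events at 2 days (9.76%, against 7.85% of all events), at 15 of 120 at 4 days (12.5%, against 12.5%) and at 14 of 115 at 7 days (12.2%, against 9.96%). GSK591 had the higher Ψ at 5, 8 and 10 of these. The control for time in culture was DMSO at 7 against 4 days, and none covers 2 against 4 days. It gave 4 called of 133 events (3.01%, against 4.74% of all events), all with higher Ψ at 7 days. They were 2 of PRMT1 and 1 each of PRMT2 and PRMT5. All 4 were MXE events, a type called at 21.3% in this comparison against 0.995% for SE. It sets counts from separately made tables side by side, whereas each inhibitor comparison stays within 1 table or within tables with the same DMSO libraries, and the part of the tables in these calls was not tested.

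Among 102 internal coding exons of the 9 main transcripts, 16 were called as skipped exons in a comparison with an inhibitor. Of these 9 (56.2%) had a length that is a multiple of 3, against 34 of 86 (39.5%) of the others, and their median length was 89 nucleotides against 112. These figures are descriptions of few exons, some of which share skipping reads. All 116 introns of these transcripts start with GT and end with AG.

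Genes near the 9 in function were counted in the same way, and their shares are set beside those of all events. Of the 9 genes of the S-adenosylmethionine cycle, which supplies the methyl donor, 3 events were higher and 2 lower of 45 tested after co-treatment for 2 days (11.1%, against 9.05% of all events), and 3 higher and 1 lower of 54 after 4 days (7.41%, against 10.9%). GSK591 gave 1 higher and 2 lower of 45 at 2 days (6.67%, against 4.36%), 2 higher and 3 lower of 44 at 4 days (11.4%, against 7.75%) and 1 of each of 42 at 7 days (4.76%, against 5.33%). MS023 gave 1 higher of 49 at 2 days (2.04%, against 1.49%), 1 higher of 36 at 4 days (2.78%, against 1.89%) and 0 of 36 at 7 days (3 at an unadjusted p under 0.05, and 0 by limma on log2 odds, against 2.48% of all events).

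The next list holds the survival motor neuron (SMN) complex, which receives the methylated Sm proteins, and readers of methylarginine. Of its 14 gene symbols, 12 or 13 had tested events in each comparison. Co-treatment for 2 days gave 6 lower of 93 (6.45%, against 9.05% of all events), and 4 days gave 1 higher and 4 lower of 86 (5.81%, against 10.9%). MS023 gave 3 lower of 81 (3.7%, against 1.49%), 2 lower of 78 (2.56%, against 1.89%) and 3 lower of 86 (3.49%, against 2.48%) at 2, 4 and 7 days. GSK591 gave 2 lower of 77 at 2 days (2.6%, against 4.36%), 0 of 81 at 4 days (9 at an unadjusted p under 0.05, and 1 called by limma on log2 odds, against 7.75%) and 1 lower of 65 at 7 days (1.54%, against 5.33%). SMN1 and SMN2 are near-identical copies whose reads can be split between them, so their share in this list is uncertain. Of the other PRMTs and PRMT regulators, 1 event was lower of 6 tested after co-treatment for 2 days (16.7%, against 9.05%), and in the other 7 comparisons with DMSO 0 of 6 to 15 tested were called, with 0 or 1 at an unadjusted p under 0.05 in each and 0 by limma on log2 odds.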

How the data were processed

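Poly(A)-RNA seq of 30 A549 libraries was analysed. The authors trimmed the reads with Trim Galore, aligned them to hg19 with STAR 2.4.2a, and counted events with rMATS, an inhibitor group and a DMSO group at a time, and the submitters' processing notes also name Picard 2.3.0 and deepTools 3.3.1. The sources give different rMATS releases. The 8 deposited tables hold, per event and library, whole-number counts of inclusion reads (junctions and segment body) and of skipping reads, not normalized, with effective lengths, and a deposited inclusion level as a fraction. Their columns of p-value, FDR and Ψ difference, the authors' own comparison, were not used. The control of the 7-day tables was taken as DMSO for 7 days from the labels.

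Ψ was recomputed from counts and lengths and lay within 0.0005 of the deposited fraction. An event's DMSO counts did not differ between tables that share a control group. A quasi-binomial logistic model was fitted to both counts over all events with at least 10 reads in every library of a comparison. Dispersions were moderated with squeezeVar of limma 3.58.1 in R 4.3.3, with a floor of 1, followed by an F test and Benjamini-Hochberg adjustment within the event type. Where the prior degrees of freedom were infinite, events of a type share 1 dispersion, and a p-value does not use the event's own spread. For SE this held with MS023 for 2 and 4 days and co-treatment for 4 days. In the other SE comparisons they were 77.9 to 312. For A5SS it held with MS023 or co-treatment for 2 days and between the inhibitors at 4 and 7 days, and for A3SS between the inhibitors at 4 days. The prior was estimated on events with at least 50 reads of the rarer form, a minimum settled after dispersions had been examined and calls with 500 reads had been seen, and 500 and 5 were run as added alternatives. Between libraries of a group, chi-square over its degrees of freedom was 1.99 to 5.45.

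The members and gene lists were chosen with earlier results of these data known. Segments named are those whose most-read event was called with a ΔΨ of at least 0.1 in size, at most 4 per gene, or for a gene with none its most-read segment. Of the 25 described, 12 follow the rule, 3 are most-read segments, and 10 were added after their values were seen. Sequences were read from GRCh37, whose splice sites match the deposited coordinates. Other alternatives were no filter, 20 reads, limma on log2 odds, adjustment over all types, counts without length correction, and each library left out. Length correction enters Ψ but not the test, so leaving it out cannot change a call and is no check of one. SKaTER-seq and actinomycin D samples were not analysed here.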

Additional observations from a re-analysis of the deposited data

Results flagged for a closer look

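The following differences between days were picked out because every library of one day moved one way against the mean of its DMSO group and every library of the other day the opposite way. In PRMT2 exon 2, GSK591 gave a ΔΨ of −0.088 at 4 days and 0.0843 at 7 days, a change of 0.1723 between the days. For PRMT7 exon 12, MS023 gave 0.023 at 4 days and −0.0472 at 7 days, a change of −0.0702. For PRMT2 exon 8, MS023 gave 0.0052 at 4 days and −0.0646 at 7 days, a change of −0.0698. The difference was not tested in any of these cases, and the days rest on separately made tables with different DMSO libraries.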

How the results depend on the processing

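Counts of called member events fell most with limma on log2 odds. It called 0 with GSK591 for 2 days (14 at an unadjusted p under 0.05), 0 with MS023 for 2 days (20), 0 for 4 days (10) and 0 for 7 days (10), 3 with GSK591 for 4 days and 1 for 7 days, 10 after co-treatment for 4 days, 2, 5 and 7 between the inhibitors at 2, 4 and 7 days, and 2 between DMSO groups. A dispersion prior from events with 500 reads gave 3 and 5 with GSK591 for 2 and 7 days, and 1, 3 and 1 with MS023 for 2, 4 and 7 days. A prior from events with 5 reads gave 9 with GSK591 for 2 days and 5 with MS023 for 7 days. The cause was not tested. Without 1 library each, counts ranged from 3 to 6, 5 to 11 and 5 to 9 with GSK591 for 2, 4 and 7 days, 2 to 5, 2 to 6 and 1 to 4 with MS023, 12 to 15 and 15 to 20 after co-treatment for 2 and 4 days, 8 to 12, 11 to 14 and 8 to 13 between the inhibitors, and 3 to 5 between DMSO groups. Of 84 called values of named segments, 45 held without any 1 library, 61 were ended by limma, 64 held under all the other alternatives, 19 held throughout, and 0 reversed. No paired analysis was possible because the columns do not tell which library is which replicate. Depth limits most the PRMT5 exon 2, PRMT7 exon 13 and PRMT1 intron 2 events, with at most 121 reads in a library.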
